A study of Mus musculus with 20 samples.

Results

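The genes followed here in the irradiated mouse aorta, 10 in all, are those through which a vessel wall holds and calls leukocytes: the adhesion molecules Vcam1, Icam1, Icam2, Sele and Selp, the chemokines Ccl2, Ccl7, Cxcl1 and Cxcl12, and the cytokine gene Il6. They were picked by gene symbol from the 21078 genes of the count table, and each of the 10 symbols matched 1 gene. The RNA came from the thoracic aorta of 20 wild type male C57BL/6 mice of 10 to 12 weeks. Each mouse received 1 whole-body exposure, 10 mice to high energy protons and 10 to gamma rays, at 0, 5, 10, 25, 50, 75, 100, 125, 150 or 200 cGy, and tissue was taken 4 h later. The 0 cGy mouse of each radiation type was restrained and placed in that irradiator without being exposed. A dose was thus given to 1 mouse per radiation type, so that a dose response rests on the trend over 10 mice and has no replicate at any dose.

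Leukocytes leave the blood in steps. The selectins Sele (E-selectin) and Selp (P-selectin) on endothelium let them roll, chemokines held on the vessel surface activate their integrins, and the immunoglobulin family receptors Vcam1, Icam1 and Icam2 then arrest them. Il6, Ccl2, Cxcl1, Sele, Icam1 and Vcam1 are textbook targets of the transcription factor NF-kB in inflamed endothelium, whereas Icam2 is made by resting endothelium and Cxcl12 is a chemokine of unstimulated stroma.

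The upstream sequence of 6 of the 10 members was found in the RefSeq promoter table (Icam1, Sele, Selp, Cxcl1, Cxcl12 and Il6), and Vcam1, Icam2, Ccl2 and Ccl7 had no entry by symbol. The 250 bases before the start of 4 of them are shown. These were chosen because Cxcl1 and Il6 were highest in the same mouse, and Sele and Selp lie close together on chromosome 1. The counts of Sele and Selp moved together, as did those of the other adhesion genes. The 4 windows are on the plus strand of GRCm38.p6, at chr5:90890995-90891244 for Cxcl1, chr5:30012864-30013113 for Il6, chr1:164047984-164048233 for Sele and chr1:164115014-164115263 for Selp. Capitals mark exact matches to 3 motifs searched on both strands: the NF-kB consensus GGGRNNYYCC, the AP-1 motif TGANTCA and the TATA box TATAAA. Here R is A or G, Y is C or T, and N is any base.
Cxcl1: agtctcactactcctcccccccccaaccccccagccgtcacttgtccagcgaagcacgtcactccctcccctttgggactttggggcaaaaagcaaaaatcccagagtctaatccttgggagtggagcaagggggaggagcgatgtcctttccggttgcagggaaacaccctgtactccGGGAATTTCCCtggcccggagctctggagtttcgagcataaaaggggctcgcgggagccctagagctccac
Il6: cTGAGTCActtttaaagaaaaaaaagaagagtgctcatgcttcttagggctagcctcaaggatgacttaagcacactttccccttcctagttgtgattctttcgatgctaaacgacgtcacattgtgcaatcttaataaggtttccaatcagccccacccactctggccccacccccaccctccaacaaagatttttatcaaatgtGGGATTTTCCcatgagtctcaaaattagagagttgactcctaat
Sele: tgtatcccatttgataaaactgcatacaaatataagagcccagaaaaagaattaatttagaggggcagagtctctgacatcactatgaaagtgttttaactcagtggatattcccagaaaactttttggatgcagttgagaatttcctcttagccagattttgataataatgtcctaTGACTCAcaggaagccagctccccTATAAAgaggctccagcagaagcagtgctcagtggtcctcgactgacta
Selp: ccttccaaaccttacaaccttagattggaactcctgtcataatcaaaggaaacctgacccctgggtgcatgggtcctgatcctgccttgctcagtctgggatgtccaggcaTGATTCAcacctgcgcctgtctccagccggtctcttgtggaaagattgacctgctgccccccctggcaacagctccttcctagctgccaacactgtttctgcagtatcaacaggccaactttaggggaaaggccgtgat
The Cxcl1 window held an NF-kB match on each strand, overlapping and beginning at bases -71 and -70 from the start, and the Il6 window held 1, beginning at base -44. An AP-1 match began at base -249 in Il6, -73 in Sele and -139 in Selp, and the TATA box match of Sele at base -49. The Icam1 and Cxcl12 windows held no exact match to any of the 3. Sites that depart from these patterns at a base were not searched for. Of all 32851 windows of this length in the table, 7.25% held the NF-kB consensus, 6.75% the AP-1 motif and 12.4% the TATA box. The matches describe letters and are not evidence of binding.

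The libraries were of nearly equal depth, with total counts of 6051657 to 6058006 per mouse, because the authors resampled them. The floor was set at 3 counts, 4.95e-05% to 4.96e-05% of a library and allows for counting error only, because read counts without identifiers can count a molecule repeatedly. All 6 smooth muscle markers and all 10 endothelial markers had counts in every mouse. The proton mouse at 75 cGy stood apart. Its summed brown fat markers (7 of 7 tested) reached 2384 CPM (counts scaled by library size with TMM factors) against 161 in the lowest proton mouse, and its 6 tested striated muscle markers reached 1853 CPM against 13.5. It had the highest value of the 20 mice for 22.7% of all tested genes. The 4 mice at 150 and 200 cGy also stood apart. Across 9702 genes, the deviation of a gene from its mean over mice correlated with its GC content at -0.405 to -0.354 in these mice and at -0.0181 to 0.288 in the other 16.

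All 10 members are protein-coding genes. In mm9, Vcam1 lies at chr3:115812938-115832606, Icam1 at chr9:20820404-20833241, Icam2 at chr11:106238970-106249389, Sele at chr1:165978365-165987808, Selp at chr1:166045395-166080157, Ccl2 at chr11:81849073-81850955, Ccl7 at chr11:81859214-81861027, Cxcl1 at chr5:91320267-91322141, Cxcl12 at chr6:117118553-117131385 and Il6 at chr5:30339701-30346508. They spanned a wide range of expression. Mean counts over the 20 mice ran from 0.600 for Il6 to 739 for Cxcl12. Vcam1, Icam1, Icam2, Sele, Selp and Cxcl12 were detected in 20 of 20 mice, Ccl2 and Cxcl1 in 19, Ccl7 in 18 and Il6 in 5. A count of 10 or more was reached in 6 mice for Sele, 4 for Ccl2, 4 for Ccl7, 1 for Cxcl1 and 0 for Il6. Il6 was at or under the floor of 3 counts in 19 mice, Cxcl1 in 14, Ccl7 in 10, Sele in 9 and Ccl2 in 5.

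Per kilobase of exon (CPM of the library total per kb), Cxcl12 had the highest median level, 13.2 (range 11.4 to 22.5). It was followed by Icam1 at 12.2 (3.70 to 19.6), Vcam1 at 11.6 (5.51 to 19.7) and Icam2 at 8.72 (2.51 to 16.7). Selp had a median of 3.16 (0.748 to 7.26), and the other 5 were below 1: Ccl2 at 0.798, Ccl7 at 0.618, Cxcl1 at 0.346, Sele at 0.284 and Il6 at 0. The ranges of the first 4 overlapped. Cxcl12 was above Icam1 in 17 of 20 mice, but Icam1 was above Vcam1 in only 5 although its median was higher, so that this pair has no settled order. Icam2 was above Selp in 20 of 20 mice, the one step of the order that held in every mouse. The order of Ccl2 and Ccl7 held in 9 mice and that of Cxcl1 and Sele in 13. With the length of the longest transcript in place of all exons, Cxcl12 stayed first at 19.2, Vcam1 became the second at 16.8, and Icam1 at 12.2 came after Icam2 at 12.9.

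**Figure D1:**
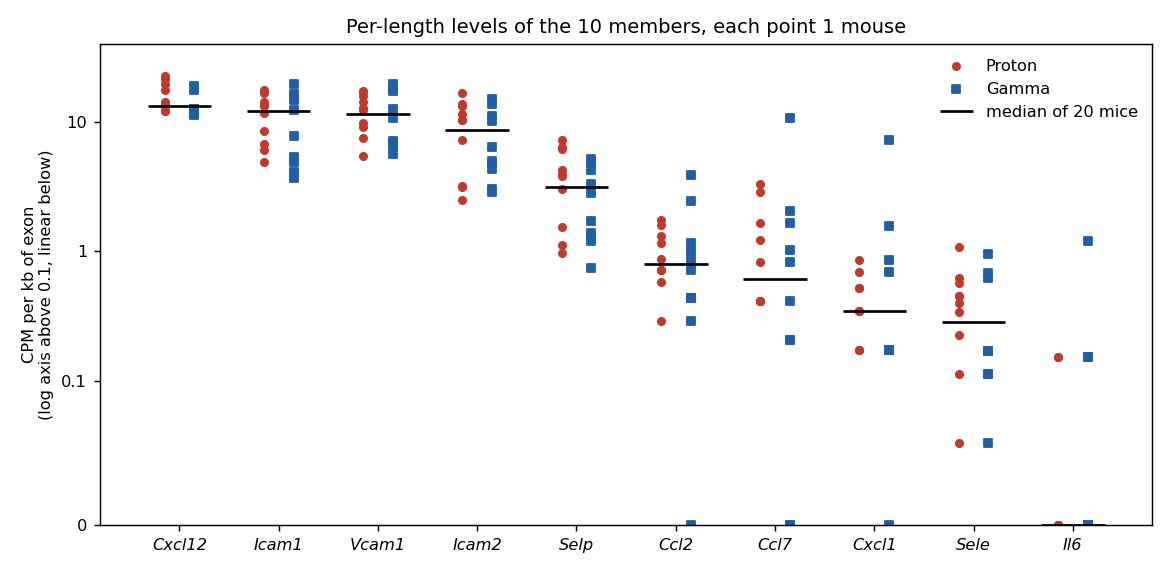
Levels of the 10 members in CPM per kb of exon (vertical axis, logarithmic above 0.1 and linear below), with each point 1 mouse, proton mice as circles, gamma mice as squares, and a line at the median of the 20 mice. Cxcl12, Icam1, Vcam1 and Icam2 have medians from 8.72 to 13.2, and Il6 lies at 0 in 15 mice.

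The 5 adhesion genes varied several fold between mice. Vcam1, which binds an integrin of monocytes and lymphocytes, had counts of 164 to 519 in proton mice (median 376) and 168 to 587 in gamma mice (median 266). Its highest count was in the gamma mouse at 200 cGy, and the next highest, 537, in the unexposed gamma mouse. Icam1, the ligand of the leukocyte integrins of the Itgb2 family, had counts of 76 to 272 after protons (median 192.5) and 57 to 302 after gamma rays (median 156). The unexposed mice had 203 and 234, so that both lay in the upper part of the range. Fewer counts were seen in 11 of the 18 exposed mice than in either unexposed mouse, and more in 4.

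Icam2, another integrin ligand, had counts of 29 to 193 after protons (median 119) and 33 to 172 after gamma rays (median 66), the highest gamma value being that of the unexposed mouse. Selp, stored in endothelial granules and platelets, had 26 to 194 counts after protons (median 104) and 20 to 139 after gamma rays (median 60.5). In 14 of 18 exposed mice Selp was below both unexposed mice, which had 170 and 114 counts, and in 1 it was above both. Sele, which endothelium makes on stimulation, had 1 to 19 counts after protons (median 7.5) and 1 to 17 after gamma rays (median 3). Its highest count was in the unexposed proton mouse, and the unexposed gamma mouse had 2. The proton and gamma mice overlapped for all 5 genes.

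**Figure D2:**
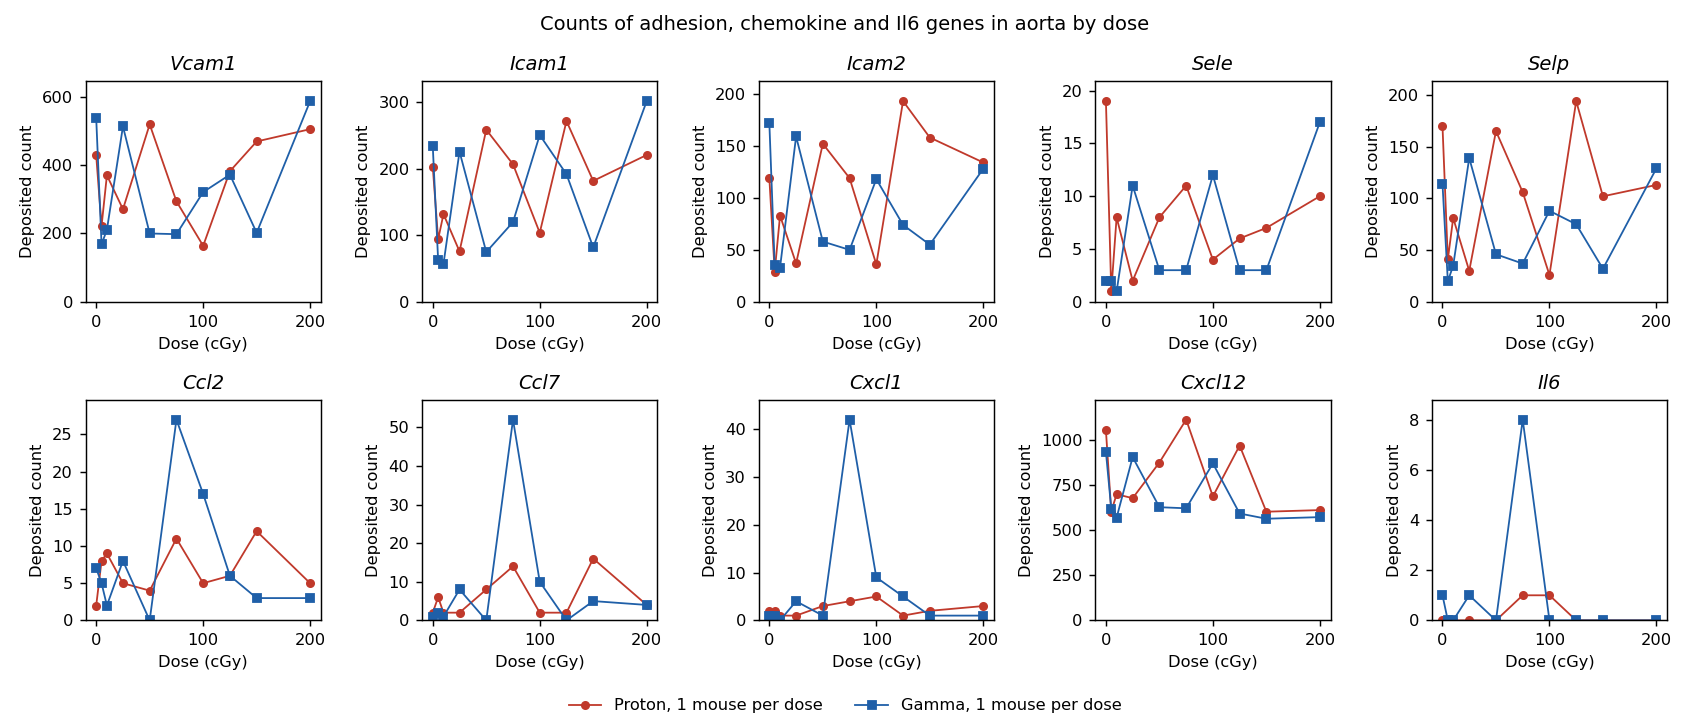
Deposited counts (vertical axes, from 0) of the 10 members against dose in cGy, with 1 mouse per dose, proton mice as red circles and gamma mice as blue squares joined by lines. Vcam1, Icam1, Icam2 and Selp go up and down between neighbouring doses, and Ccl7, Cxcl1 and Il6 are highest in the gamma mouse at 75 cGy, with counts of 52, 42 and 8.

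The coefficient of variation over 20 mice was 40.4% for Vcam1, 47.2% for Icam1, 55.5% for Icam2 and 61.5% for Selp, where counting alone gives 5.37%, 7.72%, 10.1% and 10.7%. After the fit of dose and radiation type, edgeR's biological coefficient of variation was 0.407 for Vcam1, 0.475 for Icam1, 0.559 for Icam2, 0.614 for Sele and 0.621 for Selp. The median over all tested genes was 0.145, and 90.9% to 96.8% of tested genes lay below these 5.

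The adhesion genes varied together. Across the 20 mice, Pearson's r of log2(CPM + 1) lay between 0.84 and 0.93 for the 6 pairs among Vcam1, Icam1, Icam2 and Selp, and between 0.63 and 0.73 for the 4 pairs with Sele. Within the 10 proton mice the 10 pairs lay between 0.61 and 0.95, and within the 10 gamma mice between 0.62 and 0.96. These are descriptions, since all points share the same libraries and tissue pieces. The mice with few counts were the same ones: Icam2 was under 60 and Selp under 50 in the proton mice at 5, 25 and 100 cGy and the gamma mice at 5, 10, 50, 75 and 150 cGy, and in no others.

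Markers of endothelium moved with them. The endothelial score, the mean log2(CPM + 1) of 10 markers such as Pecam1, Cdh5 and Vwf, correlated over the 20 mice at r = 0.69 with Vcam1, 0.81 with Icam1, 0.80 with Icam2, 0.80 with Selp and 0.73 with Sele, where the median r of the 9817 genes averaging 50 counts or more was -0.04. Without the mice at 75 cGy the 5 values were 0.74 to 0.91. The summed endothelial markers ranged from 553 to 1427 CPM in proton mice and from 540 to 1487 CPM in gamma mice. Leukocyte markers moved too, with r of 0.65 to 0.83 for the 5 genes and a summed level of 83.5 to 296 CPM in proton and 49.7 to 312 CPM in gamma mice. Of 11 leukocyte markers 7 were tested, and 5 were at 0 in some mice, among them the T cell marker Cd3e in 14. With the smooth muscle score the r of the 5 genes was -0.51 to -0.26. The unexposed proton and gamma mice had endothelial scores of 6.02 and 5.86 (range over mice 4.89 to 6.63) and leukocyte scores of 3.37 and 3.21 (1.46 to 3.75). The numbers of exposed mice below both unexposed mice, given for Icam1, Selp and Cxcl12, rest on 1 unexposed mouse per type and were not tested. In bulk tissue, more cells of a type and more RNA per cell cannot be told apart, and the part of cell makeup in the spread was not tested.

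**Figure D3:**
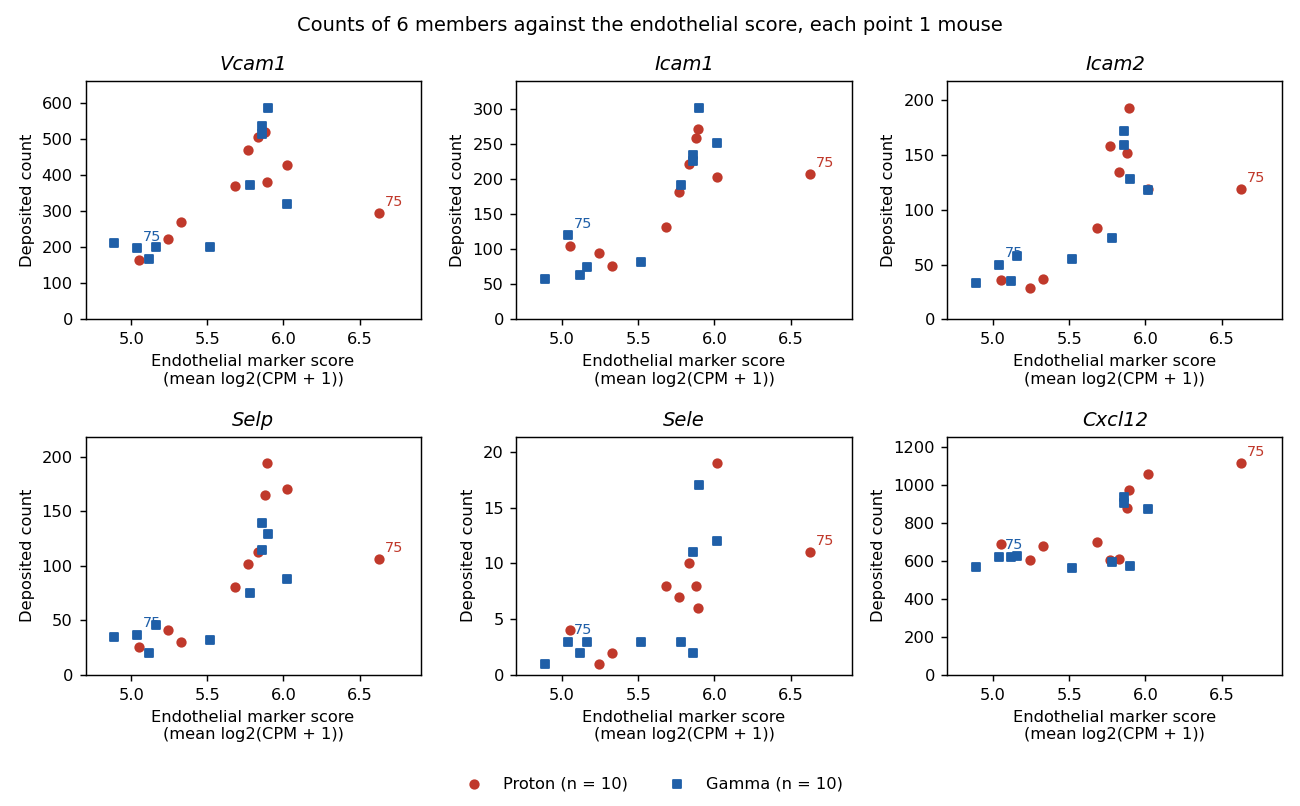
Deposited counts (vertical axes, from 0) of 6 members against the endothelial marker score, in mean log2(CPM + 1), with each point 1 mouse, 10 proton mice as circles and 10 gamma mice as squares, and the mice at 75 cGy labelled by their dose. The counts of Icam1, Icam2 and Selp go up with the score (r = 0.81, 0.80 and 0.80 over 20 mice), and the proton mouse at 75 cGy lies to the right of the others.

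The genes most like Selp, Icam2 and Icam1 over the 20 mice, among 9816 others averaging 50 counts or more, were Gja5, Ece1 and Slco2a1 for Selp (r = 0.97, 0.96 and 0.95) and Cd24a, Spon1 and Adh7 for Icam2 (0.98, 0.97 and 0.97). For Icam1 they were Itpr3, Ass1 and Pkn3 (0.96, 0.96 and 0.95). Within each radiation type these r were 0.94 to 0.98. Gja5 is a gap junction protein and Ece1 the endothelin converting enzyme.

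Cxcl12, the ligand of Cxcr4, was the steadiest member. It had 603 to 1114 counts after protons (median 694) and 564 to 935 after gamma rays (median 620.5), with a coefficient of variation of 24.1%. The unexposed mice had 1054 and 935 counts, and 16 of 18 exposed mice lay below both. All 4 mice at 150 and 200 cGy had low counts, 603 and 612 after protons and 564 and 573 after gamma rays, but so had those at 5 cGy, with 604 and 619. Its r was 0.67 with the endothelial score and 0.77 with the leukocyte score. The genes most like it were Rgl1, Unc93b1 and 4632428N05Rik (r = 0.93, 0.91 and 0.91).

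The 3 inducible chemokines and Il6 had few counts in nearly all mice. Ccl2, which draws monocytes through Ccr2, had 2 to 12 counts after protons (median 5.5) and 0 to 27 after gamma rays (median 5.5). Ccl7, its neighbour on chromosome 11 with an overlapping set of receptors, had 2 to 16 counts after protons (median 3) and 0 to 52 after gamma rays (median 3). Cxcl1, which draws neutrophils, had 1 to 5 counts after protons (median 2) and 0 to 42 after gamma rays (median 1). Il6 had 0 or 1 count in 19 mice and 8 in 1.

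One mouse held the highest count of all 4 genes. The gamma mouse at 75 cGy had 27 counts of Ccl2, 52 of Ccl7, 42 of Cxcl1 and 8 of Il6. The next highest counts were 17, 16, 9 and 1. The 4 genes summed to 129 counts in this mouse, 33.3% of all their counts, against 1 to 36 in the other 19 (median 11). The mouse with 36 was the gamma mouse at 100 cGy, and the proton mouse at 75 cGy had 30. With 1 mouse at this dose and type, the dose and the animal cannot be told apart.

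The adhesion genes were not high in that mouse, with 198 counts of Vcam1, 120 of Icam1, 50 of Icam2, 3 of Sele and 37 of Selp. Its endothelial score, 5.04, and leukocyte score, 1.85, were in the lower part of their ranges (4.89 to 6.63 and 1.46 to 3.75). It had the highest level of the 20 mice for 2.88% of all tested genes. Among the tested genes of other lists this was so for 1 of 15 other chemokines (Ccl19, with 14 counts against 2 to 12 elsewhere), 1 of 25 genes of the NF-kB pathway (Rela, with 590 counts against 381 to 577), 1 of 17 genes of interleukin signalling and 2 of 12 immediate early genes. It was so for 0 of 21 other adhesion genes and 0 of 10 chemokine receptors. Among other chemokines with too few counts to be tested, this mouse was also highest for Cxcl5 (5 counts against 0 to 2) and Cxcl10 (6 against 0 to 3). The same held for Ccl4 (2 against 0 to 1) and Cxcl15 (1 against 0), both under the floor of 3 counts in every mouse. It did not hold for Ccl3, Ccl5, Cxcl14, Ccl21a, Ccl22, Cxcl17 or Xcl1. For Cxcl2 (2 against 0 to 2) and Ccl17 (1 against 0 to 1) the mouse only shared the highest count. The gene of interleukin signalling was Socs3, a feedback inhibitor of cytokine receptors, with 123 counts against 25 to 69 in the other 19 mice. The immediate early genes were Junb, with 140 against 37 to 120, and Zfp36, which promotes decay of cytokine mRNAs, with 522 against 289 to 509. The genes of these lists are named because of their values in this mouse, which are given without a test.

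The question of the design was whether expression follows dose, and in which radiation type. The slope of each gene, as log2 per 100 cGy, was fitted in edgeR with a separate line for each type, and a common slope for both was tested as well. A call is an adjusted p (Benjamini-Hochberg over the 13124 genes averaging 5 counts or more) under 0.1. Of the 10 members 8 were tested, and Cxcl1 and Il6, with mean counts of 4.45 and 0.600, fell below the filter. None of the 8 was called: 0 for the proton slope, where 1.76% of all tested genes were called, 0 for the gamma slope (7.65%) and 0 for the common slope (17.7%). At an unadjusted p under 0.05 the count was also 0 in each, by edgeR and by DESeq2. Over all 13124 tested genes edgeR gave 1745, 2413 and 3285 at that level for the proton, gamma and common slope. In some other settings 1 to 3 members had an unadjusted p under 0.05, with 3 when the gamma mouse at 25 cGy was left out.

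Sele had the largest fitted slope, 0.99 in gamma mice (95% interval -0.04 to 2.02; edgeR adjusted p = 0.297), and -0.01 in proton mice (-0.99 to 0.97; adjusted p = 0.999). Both intervals are wide beside those of the other adhesion genes. Sele was at or under the floor of 3 counts in 7 of 10 gamma and 2 of 10 proton mice. Without the gamma mouse at 200 cGy the gamma slope was 0.40 for Sele and 0.10 for Icam1. Icam1 had a slope of 0.38 in proton mice (-0.34 to 1.09) and 0.43 in gamma mice (-0.25 to 1.10), and its common slope of 0.40 (-0.07 to 0.88) had the smallest p among the members' common slopes, 0.0914 (edgeR adjusted p = 0.294). Icam2 had a slope of 0.60 (-0.24 to 1.44) in proton mice and 0.03 (-0.78 to 0.83) in gamma mice. The common slope was 0.22 for Vcam1 (-0.17 to 0.61) and 0.22 for Selp (-0.40 to 0.84). For these 2 genes a doubling per 100 cGy lies outside the interval, while 0 and small slopes of either sign lie inside it.

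For Ccl2 and Ccl7 the common slopes were 0.11 (-0.74 to 0.96) and 0.47 (-0.90 to 1.84). Cxcl12 was the one member with a slope below 0 in both types, -0.12 (-0.42 to 0.18) in proton and -0.21 (-0.50 to 0.09) in gamma mice, with a common slope of -0.17 (-0.37 to 0.04; edgeR adjusted p = 0.328). Over the 8 members the median common slope was 0.26, and 7 of 8 were above 0. The median was 0.006 over all tested genes and 0.195 over the 10 endothelial markers, and with the endothelial score as a covariate it was 0.11 over the 8 members. Ccl7 is one of the 8 only through the gamma mouse at 75 cGy, without which its mean count was 4.68. With the mice at 150 and 200 cGy left out, the common slope of Vcam1 was -0.15 and that of Cxcl12 0.02.

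A single setting gave a call. With the endothelial score as a covariate, Cxcl12 had a slope of -0.34 (SE 0.08) in gamma mice and -0.25 (SE 0.06) in common, with edgeR adjusted p = 0.0201 and 0.00825, where 11.6% and 21.5% of all genes were called. Over all other settings its adjusted p was 0.165 to 0.980 for the gamma slope and 0.175 to 0.986 for the common slope. The proton slope in this fit was -0.16 (SE 0.08; adjusted p = 0.343).

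**Figure D4:**
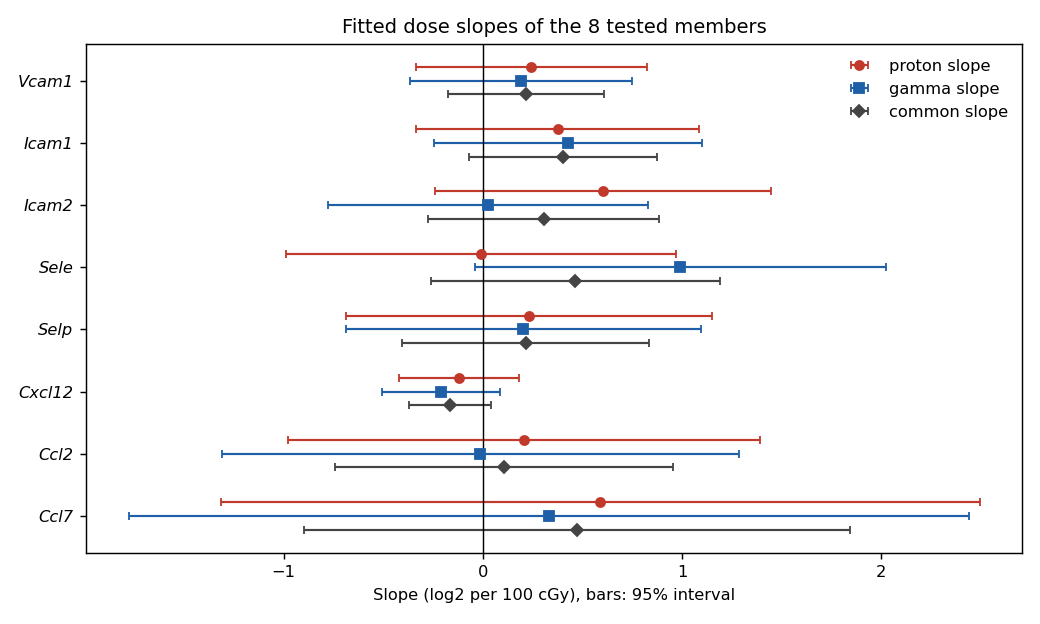
Fitted slopes of the 8 tested members in log2 per 100 cGy (horizontal axis), for proton mice (circles), gamma mice (squares) and both in common (diamonds), with bars for the 95% interval. Every interval includes 0, and the widest are those of Ccl7, from -1.78 to 2.44 for the gamma slope.

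Rank trends gave a similar picture. Over all orders of the 10 doses, the exact two-sided permutation test of Spearman's rho called 0 of 8 members in proton mice, where 0.0838% of tested genes were called, and 0 of 8 in gamma mice (1.80%). The highest rho was that of Sele in gamma mice, 0.715, with an exact permutation p of 0.0225 and an adjusted p of 0.234. It was 0.018 in proton mice. In gamma mice the ranks of Sele include 7 mice at or under the floor of 3 counts. With TMM-scaled values the gamma rho of Sele was 0.636 (exact permutation p = 0.0544). Next came Icam2 in proton mice, with rho = 0.571 (exact permutation p = 0.0893), and Cxcl12 in gamma mice, with rho = -0.515 (exact permutation p = 0.133). With TMM-scaled values the gamma rho of Cxcl12 was -0.648 (exact permutation p = 0.0490). The untested Cxcl1 had a rho of 0.299 in proton and 0.304 in gamma mice, and Il6 0.174 and -0.360. With doses 0 to 125 cGy the gamma rho of Cxcl1 was 0.732 (exact permutation p = 0.0488).

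Proton and gamma mice were not told apart by any member. The slope difference was called for 0 of 8 members, as for 0% of all tested genes, and the comparison at matched dose likewise for 0 of 8 against 0%. By edgeR and by DESeq2, 0 members had an unadjusted p under 0.05 in either, while over all genes edgeR gave 254 for the slope difference and 1032 at matched dose. The estimated difference of proton over gamma at matched dose was 0.18 for Vcam1 (95% interval -0.35 to 0.70), 0.21 for Icam1 (-0.49 to 0.92), 0.26 for Icam2 (-0.62 to 1.14) and 0.53 for Selp (-0.38 to 1.44), on the log2 scale. It was 0.17 for Cxcl12 (-0.07 to 0.42). The single pairs differed widely: the log2 ratio of Selp between mice of the same dose ran from -2.21 at 25 cGy to 1.77 at 50 cGy, and that of Icam2 from -2.10 at 25 cGy to 1.55 at 150 cGy. For Cxcl12 the pairs ran from -0.41 to 0.80, with the proton mouse higher in 7 of 10.

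The other genes of these pathways were taken from lists. Of 28 other adhesion genes 21 were tested and 0 called for any slope, with 0 at an unadjusted p under 0.05 for the common slope. The 2 with the smallest common slope p were Pecam1, 0.34 (SE 0.18; edgeR adjusted p = 0.266), and Itgb1, 0.10 (SE 0.06; adjusted p = 0.347). Of 33 other chemokines 15 were tested and 0 called, again with 0 at an unadjusted p under 0.05 for the common slope, led by Ccl12 at 0.78 (SE 0.45; adjusted p = 0.313) and Cx3cl1 at -0.13 (SE 0.10; adjusted p = 0.469). The median common slope was 0.06 for the adhesion list and -0.03 for the chemokine list. Of 23 chemokine receptors 10 were tested, and 1 was called for the common slope, Ackr2, a scavenging receptor for inflammatory chemokines, which fell by 0.64 per 100 cGy (SE 0.19; edgeR adjusted p = 0.0324). It had 9 counts in the unexposed proton mouse and 7 at 200 cGy, and 11 and 3 in the gamma mice.

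Of 30 genes of the NF-kB pathway 25 were tested, and for the common slope 4 rose and 2 fell. For the proton slope 0 were called, and for the gamma slope 3 rose and 2 fell. Of all tested genes 1.76% and 7.65% were called for these slopes. The slope difference was called for 0. Nfkbia, the inhibitor that NF-kB itself induces, rose by 0.46 (SE 0.09; edgeR adjusted p = 0.00318), with 245 counts in the unexposed and 296 in the 200 cGy proton mouse, and 231 and 451 in the gamma mice. Ikbkg, a subunit of the kinase that releases NF-kB, rose by 0.25 (SE 0.06), the endotoxin receptor Tlr4 by 0.30 (SE 0.08) and the apoptosis inhibitor Birc3 by 0.18 (SE 0.06). The subunits Nfkb1 and Rela fell by 0.15 (SE 0.04) and 0.16 (SE 0.05). In 19 genes of interleukin signalling, of which 17 were tested, Jak2 rose by 0.21 (SE 0.05), Osmr by 0.19 (SE 0.06) and Lifr by 0.20 (SE 0.06), and 0 fell. These too are common slopes, and 0 of the 17 were called for the proton or the gamma slope. With the common slope of 17.7% of all tested genes called, 6 of 25 and 3 of 17 are set beside that background. With the 4 mice at 150 and 200 cGy left out, Nfkbia alone of these 10 called genes was still called, and with a correction for GC content and length 4 of the 10 were. The share of all tested genes called was 0.625% in the former and 7.51% in the latter.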

How the data were processed

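Stranded, polyA-selected RNA libraries of 20 aortas were aligned by the authors to mm9 with STAR 2.5.2a after CASAVA 1.8.1, and resampled to a common depth with PORT. The deposited values are whole-number sense-strand counts for each gene, with no further scaling found. Gene coordinates and exon lengths came from GENCODE M1, on the same build, in which all 21078 identifiers were found.

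Slopes were tested with edgeR 4.0.16 (TMM, robust quasi-likelihood) on 13124 genes averaging 5 counts or more, with DESeq2 1.42.0 as an alternative, and the radiation types were compared at matched dose, blocking on dose. Rank trends were tested by exact permutation over the doses. Adjusted p-values are by Benjamini-Hochberg over all tested genes, with a threshold of 0.1. In simulated data of the same size, the common slope test recovered 76% of genes with a slope of 0.5 and 89% of genes with a slope of 1. For the proton slope these were 55% and 84%. The changed genes were picked at random from all tested genes, whose median biological coefficient of variation was 0.145. Among the tested members it ran from 0.203 for Cxcl12 and 0.407 for Vcam1 to 1.137 for Ccl7. The recovery for genes as variable as these was not measured. The alternatives were other filters, scalings and dose scales, 3 marker scores as covariates, a GC and length correction, doses up to 125 cGy, and leaving out each mouse or both mice at 75 cGy. R 4.3.3, Python 3.11.15, numpy 2.4.6, pandas 2.3.3 and scipy 1.17.1 were used.

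The members and the gene lists were chosen with earlier results of these data known, and the motifs after the counts were seen. Named beside the members are, from each pathway list, the genes called for a slope (at most 6), or else the 2 with the smallest common slope p, and the 3 genes most like each member averaging 50 counts or more, those of Vcam1 not being reported here. Antisense and intron reads were not analysed here.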

Additional observations from a re-analysis of the deposited data

Results flagged for a closer look

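In the 10 gamma mice, 3 counts lay farther from the rest than Dixon's test at the 95% level allows for 10 values: Ccl7 with 52, Cxcl1 with 42 and Il6 with 8, all in the mouse at 75 cGy. The gap to the next mouse took 0.808 of the whole range for Ccl7 and 0.786 for Cxcl1, both past the critical value. Ccl2, with 27 counts in the same mouse, had a gap of 0.370 of its range and did not pass. The rule was applied to 20 groups of 10 mice, and it passes about 1 in 20 groups by chance where values are normally distributed. For counts near 0, which are skewed, its rate is not known. The 3 values come from the same library. Without this mouse Ccl7 would be under the filter on mean counts (4.68), so its slope without the mouse says nothing about stability, and Cxcl1 and Il6 were under the filter with it.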

How the results depend on the processing

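No replicate of a dose exists within a radiation type, and no replicate numbers are shared between proton and gamma mice, so the one pairing made was by dose. Counts of called members were 0 under all settings except the endothelial score as a covariate, where 1 member, Cxcl12, was called for the gamma slope and 1, also Cxcl12, for the common slope. A fitted value is taken to have turned where its sign changed by more than 1 SE of the reported fit. With doses 0 to 125 cGy this held for the proton slopes of Vcam1 (-0.17) and Cxcl12 (0.19), the gamma slopes of Vcam1 (-0.13) and Ccl2 (1.35), the common slopes of Vcam1 (-0.15) and Cxcl12 (0.018), and the slope differences of Ccl2 (-1.23) and Ccl7 (-2.14), and for the rank trends of Vcam1 (-0.119) and Cxcl12 (0.214) in proton mice and of Ccl2 (0.310) in gamma mice. With log2(dose + 1) it held for the gamma slope of Vcam1 (-0.078). Leaving out single mice gave ranges of -0.31 to 0.56 for the proton slope of Sele, which turned without the unexposed proton mouse, and of -0.28 to 0.43 for Vcam1, -0.37 to 0.36 for Icam2 and -0.32 to 0.44 for Selp for the gamma slope, which turned without the gamma mouse at 200 cGy. The cause was not tested. A further 104 values changed sign within 1 SE. Of the common slopes of the 10 called pathway genes, none turned; 9 lost their call with doses 0 to 125 cGy, where fewer mice are fitted, 9 with log2(dose + 1), 6 with the GC and length correction and 4 without the gamma mouse at 200 cGy. Depth limits Sele, Ccl2, Ccl7, Cxcl1 and Il6, whose counts were mostly under 10.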

Other observations

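Beside the members, the 6 p53 targets examined (Aen, Cdkn1a, Mdm2, Ccng1, Bax and Eda2r) all rose with dose in both radiation types by edgeR. Their median slope was 0.97 in proton and 0.91 in gamma mice. Of all tested genes 1.76% and 7.65% were called for these 2 slopes. The paper lists all 6 as dose-responsive to both types in these same mice, so their rise was known beforehand and is no independent result. Among 9 glucocorticoid-induced genes, Per1 (common slope 0.56, SE 0.18), Zbtb16 (0.92, SE 0.27) and Sgk1 (0.48, SE 0.10) rose, with edgeR adjusted p = 0.0445, 0.0329 and 0.00422. For this slope 17.7% of all tested genes were called, 11.9% as a rise, and 0.625% with doses 0 to 125 cGy. Their calls without the mice above 125 cGy, which stood apart by GC content, were not tested. Their proton slopes were above 0, at 0.35 (SE 0.25), 0.41 (SE 0.37) and 0.38 (SE 0.15), but not called (edgeR adjusted p = 0.615, 0.724 and 0.252). The slope difference between the types was called for 0 of the 9 genes. From the unexposed to the highest-dose mouse, with 1 mouse at each, counts went from 338 to 312, 156 to 114 and 463 to 354 after protons. After gamma rays they went from 137 to 486, 165 to 642 and 293 to 628. Of 12 immediate early genes 0 were called for any slope; the slope was above 0 for 12 of 12 in proton and 4 of 12 in gamma mice, and the slope difference was called for 0 of them, with 1 at an unadjusted p under 0.05.

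For the common slope, 1 of 6 smooth muscle markers fell, Smtn by 0.28 per 100 cGy (SE 0.08), and 2 of 6 fibroblast markers, the collagens Col1a1 and Col1a2, by 0.46 (SE 0.14) and 0.31 (SE 0.10). Of all tested genes 17.7% were called for this slope, 5.77% as a fall, and 0.625% with doses 0 to 125 cGy. Whether these markers keep their calls without the mice above 125 cGy, which stood apart by GC content, was not tested. Among the uncalled smooth muscle markers the common slope was 0.15 for Myh11, the smooth muscle myosin, and 0.00 for Cnn1. It was -0.02 for Tagln, -0.04 for Acta2 and -0.16 for Lmod1. Among the uncalled fibroblast markers it was 0.01 for the proteoglycan Dcn, -0.07 for Lum, -0.07 for Pdgfra and -0.22 for Col3a1. By edgeR, 0 of 10 endothelial, 0 of 7 tested leukocyte and 0 of 7 brown fat markers were called for any slope. So were 0 of 5 white fat, 0 of 6 tested striated muscle and 0 of 3 tested mesothelial markers. At an unadjusted p under 0.05 for the common slope, the count was 1 for the endothelial markers and 0 for each of the other 5 lists. The 3 thymus markers found in the table had at most 3 counts together in any mouse.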
